A study of Mus musculus with 9 samples.

Results

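The 9 genes described here encode the first steps of signalling from the B cell receptor: the receptor's signalling chains Cd79a and Cd79b, the kinases Lyn, Blk, Syk and Btk, the adaptor Blnk, the phospholipase Plcg2 and the inhibitory co-receptor Cd22. They were chosen by name, and all 9 were found among the 46958 genes of the count table and passed the filter on low counts. RNA was sequenced from spleen plasma cells of mice that had not been immunised, isolated with beads against CD138, a surface proteoglycan of plasma cells. Each of the 9 libraries held the cells of 1 spleen, the mice were 3 months old and of a mixed C57/BL6, 129/SV and BALB/c background, and each genotype, WT, DH-LMP2A and kFRA (LCDD, light chain deposition disease), had 3 libraries. The labelled purity was above 80%.

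The labels give only the names of the genotypes. As background from the published lines, DH-LMP2A places the latent membrane protein 2A (LMP2A) gene of Epstein-Barr virus in the immunoglobulin heavy-chain locus, so that B cells develop without a heavy chain. The published kFRA line carries a light chain from a patient with LCDD in the mouse kappa locus and was bred onto DH-LMP2A. The labels do not state whether the kFRA mice here carried the DH-LMP2A allele too. LMP2A was not analysed here. Levels of the heavy-chain gene Ighm were 168900 ± 15040 CPM (counts scaled to a common library total, SD, n = 3) in WT, 9742 ± 344 CPM (SD, n = 3) in DH-LMP2A and 8812 ± 1751 CPM (SD, n = 3) in kFRA. Each library of the mutant genotypes was below every WT library for this gene, whose product anchors the receptor.

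In a resting B cell, membrane immunoglobulin pairs with a dimer of the CD79A and CD79B proteins, whose tails carry paired tyrosines. Lyn and Blk, kinases of the Src family, phosphorylate these tyrosines, Syk docks on them, and Syk and Btk then activate phospholipase C gamma 2 on the adaptor BLNK. The tail of LMP2A carries similar tyrosines and engages Lyn and Syk. CD22, once phosphorylated by Lyn, recruits the phosphatase encoded by Ptpn6 and dampens the signal. Plasma cells are known for low receptor signalling and for high secretion.

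RefSeq promoter windows on GRCm38.p6, from 250 bases before to 50 after the transcript start, were matched for 6 of the 9 genes (Cd79a, Cd22, Blnk, Btk, Plcg2 and Syk). Those of Cd79a, Cd22 and Blnk are shown because these genes passed the test in different directions, and each holds 1 match to a searched motif, in capitals. The motifs were searched on both strands: ATGCAAAT (the octamer), found in 1.74% of 32851 windows of this length, CCCNNGGG (the core of the EBF1 motif, 13.7%), GGAAGTG (an ETS motif, 11%) and AGNGAAAG (the core of the BLIMP-1 motif, 8.63%). The Cd79a window (chr7:24897247-24897546, plus strand) holds the ETS letters 54 bases before the start, the Cd22 window (chr7:30878979-30879278, minus strand) the EBF1 core from 48 bases before it, and the Blnk window (chr19:40994172-40994471, minus strand) the octamer on the opposite strand, from 130 bases before it. The windows of Btk and Plcg2 hold none of these letters, and of both Syk windows 1 holds the ETS letters. A match describes letters only.
Cd79a: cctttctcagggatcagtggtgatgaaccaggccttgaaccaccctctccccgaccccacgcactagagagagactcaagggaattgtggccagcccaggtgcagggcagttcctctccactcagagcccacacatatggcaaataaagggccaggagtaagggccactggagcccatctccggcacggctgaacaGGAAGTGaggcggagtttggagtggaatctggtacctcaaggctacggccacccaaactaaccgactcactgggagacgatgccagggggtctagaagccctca
Cd22: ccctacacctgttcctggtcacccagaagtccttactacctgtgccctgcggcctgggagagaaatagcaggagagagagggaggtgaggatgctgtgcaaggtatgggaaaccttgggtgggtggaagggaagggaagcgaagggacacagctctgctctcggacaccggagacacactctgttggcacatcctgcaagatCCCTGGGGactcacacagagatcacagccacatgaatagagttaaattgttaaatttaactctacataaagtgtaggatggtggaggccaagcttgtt
Blnk: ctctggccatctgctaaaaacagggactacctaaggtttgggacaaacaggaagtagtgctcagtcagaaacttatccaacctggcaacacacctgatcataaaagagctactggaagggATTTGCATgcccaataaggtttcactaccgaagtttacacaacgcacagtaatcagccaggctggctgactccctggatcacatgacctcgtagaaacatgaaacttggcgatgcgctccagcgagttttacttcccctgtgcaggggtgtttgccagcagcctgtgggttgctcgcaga

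Total counts ranged from 15449026 to 21558128 per library, so that 3 counts, the floor used for detection, are at most 0.194 CPM before scaling, and every member had at least 87 counts in every library. Levels are CPM scaled by TMM (trimmed mean of M values). Marker genes fixed as lists described the cells of each library. All 8 plasma cell markers were detected in every genotype, with a summed level of 18870 to 24120 CPM in WT, 34120 to 47120 CPM in DH-LMP2A and 20380 to 32040 CPM in kFRA. Most of this sum was Jchain, with means of 17810, 30940 and 21100 CPM in the same order. The 11 B cell markers in the table, none of them a member, summed to 3826 to 5156 CPM in WT, 3687 to 4516 CPM in DH-LMP2A and 3175 to 3509 CPM in kFRA, and myeloid markers to 2778 to 5109, 892 to 2744 and 1528 to 2813 CPM in the same order. Cd74, with means of 3347, 2961 and 2605 CPM, made up most of the B cell sum. No B cell, plasma cell or myeloid marker in the table was at 0 in any genotype. DH-LMP2A replicate 3 had the highest B cell marker mean of its group (6.78 on the log2 CPM scale, against 5.97 and 6.09) and the lowest myeloid sum. In such bulk samples, fewer cells of a type and less RNA per cell cannot be told apart.

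Tests used edgeR's quasi-likelihood fit over all genes, with Benjamini-Hochberg adjusted p-values and 0.05 as the threshold. In DH-LMP2A against WT, 1 member rose (Cd79a) and 2 fell (Lyn and Cd22), against 12.4% of all 14199 genes called in either direction (5.07% higher and 7.3% lower). In kFRA against WT, 1 member rose (Blnk) and 3 fell (Lyn, Blk and Cd22), where 17.8% of all genes were called (6.68% higher and 11.1% lower). In kFRA against DH-LMP2A none of the 9 members passed in edgeR's test or in DESeq2's Wald test. There 1 member (Btk) had an unadjusted p under 0.05, and 5.02% of all genes were called (1.73% higher and 3.3% lower). Without kFRA replicate 2, the genes called in that comparison rose from 713 to 3299, and Btk passed. The median log2 fold change of the 9 members was −0.16, 0.03 and −0.22 in these 3 comparisons, beside −0.01, −0.04 and 0 over all genes. The comparisons with WT share the WT libraries, and those with kFRA share the kFRA libraries. The purpose stated in the series' title was the toxicity of the LCDD light chain to plasma cells. The comparison of kFRA with DH-LMP2A isolates that light chain only if the kFRA mice carried the DH-LMP2A allele, which the labels do not state.

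**Figure D1:**
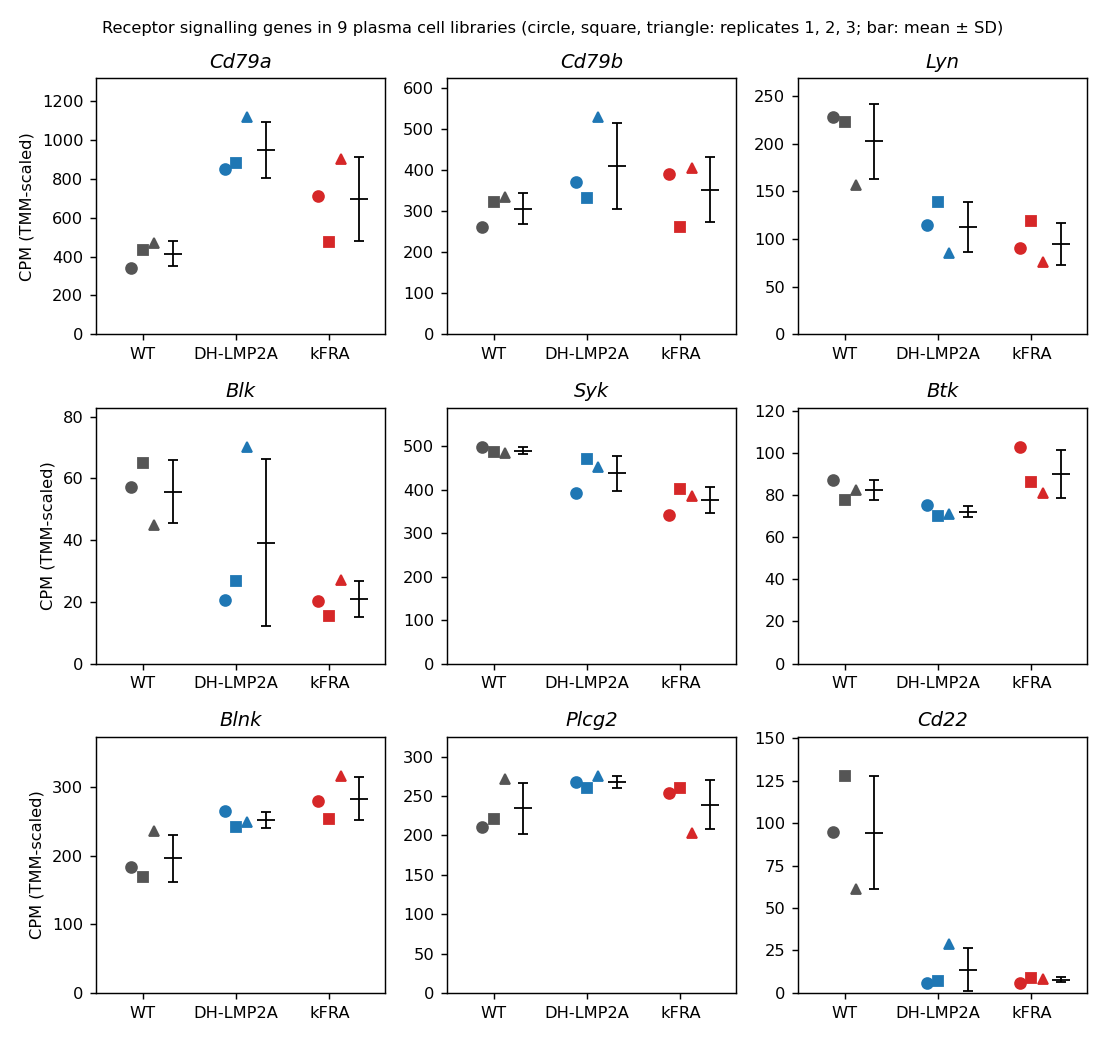
TMM-scaled CPM (y axes, linear, from 0) of the 9 genes in the 3 libraries of each genotype (x axes), with the mean ± SD as a bar beside the points. Cd79a is lowest in WT and Cd22 highest in WT, and the triangle of DH-LMP2A (replicate 3) stands above its group for Blk (70.28 CPM) and Cd22 (28.62 CPM).

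Cd79a, on chromosome 7 (24897381 to 24902197, plus strand, GRCm38 as for all coordinates here), encodes the alpha chain of the receptor's signalling dimer. Its level was 343.5, 433.7 and 468.8 CPM in WT, 849.6, 883.5 and 1116 CPM in DH-LMP2A and 711.8, 474.3 and 904 CPM in kFRA. All DH-LMP2A libraries lay above all WT libraries, as did those of kFRA, where replicate 2 exceeded the highest WT library by the least. Cd79a rose 2.29-fold in DH-LMP2A against WT (log2 fold change 1.19, SE 0.252, edgeR adjusted p = 0.0145). That call was lost without DH-LMP2A replicate 3 (edgeR adjusted p = 0.05235), without WT replicate 1 (0.0542) and without WT replicate 2 (0.0501), with log2 fold changes between 1.07 and 1.22. In kFRA the log2 fold change against WT was 0.75 (SE 0.25, edgeR adjusted p = 0.0672), which did not pass. It passed without kFRA replicate 2 (log2 fold change 1.03, edgeR adjusted p = 0.00905), by DESeq2's Wald test (adjusted p = 0.0146) and with the replicate number as a block (edgeR adjusted p = 0.0459).

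Cd79b, on chromosome 11 (106311341 to 106314762, minus strand), encodes the beta chain that pairs with CD79A. It had 262.1, 322.8 and 333.3 CPM in WT, 371.6, 330.8 and 528.1 CPM in DH-LMP2A and 390.4, 261.2 and 403.9 CPM in kFRA. The genotypes overlapped in each comparison. No difference passed with TMM scaling, the 95% confidence interval of the log2 fold change being −0.1 to 0.94 for DH-LMP2A against WT, −0.32 to 0.72 for kFRA against WT and −0.74 to 0.3 for kFRA against DH-LMP2A.

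The ratio of the signalling chains does not depend on the scaling of the libraries. Per kilobase of exon, Cd79a exceeded Cd79b 1.29-, 1.32- and 1.38-fold in WT, 2.25-, 2.62- and 2.08-fold in DH-LMP2A and 1.79-, 1.78- and 2.2-fold in kFRA. The WT libraries lay below all others, and DH-LMP2A and kFRA overlapped. An exact 2-sided permutation test gave p = 0.1 for each mutant genotype against WT, the smallest value that 3 against 3 libraries allow, and p = 0.2 for kFRA against DH-LMP2A (0.15 and 0.24 when adjusted over 6 such tests on ratios). The ratio was chosen with the values of both genes known.

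**Figure D2:**
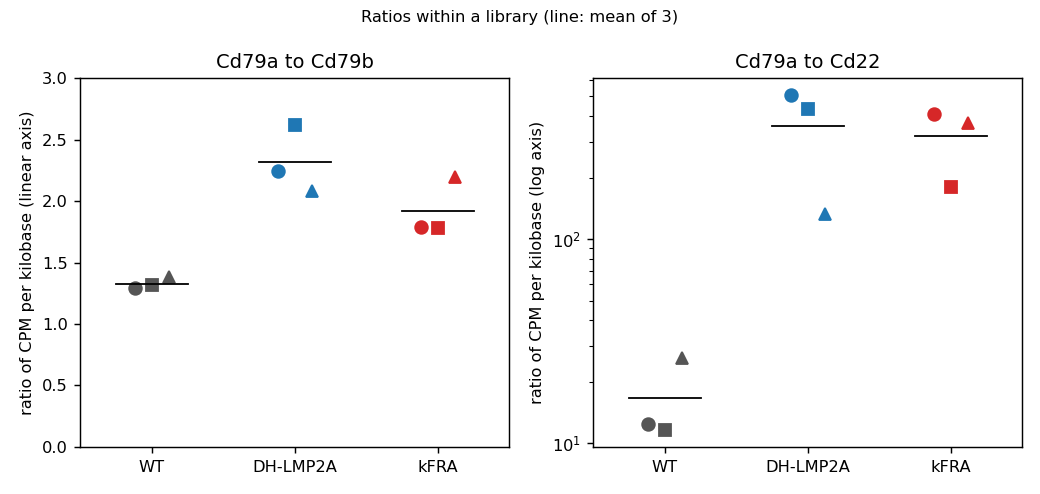
Ratio of CPM per kilobase of Cd79a to Cd79b (left, linear axis from 0) and of Cd79a to Cd22 (right, log axis) in each library, by genotype, with a line at the mean of 3. In WT the first ratio is 1.33 ± 0.0479 and the second 16.8 ± 8.2 (SD, n = 3 each), below every library of the other genotypes.

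Cd22, on chromosome 7 (30865402 to 30880342, minus strand), is a receptor for sialic acids that recruits phosphatases to the B cell receptor. It had 94.53, 127.7 and 61.22 CPM in WT, 5.75, 6.954 and 28.62 CPM in DH-LMP2A and 5.946, 9.032 and 8.398 CPM in kFRA. The lowest WT library was above every mutant library, and DH-LMP2A replicate 3 lay well above the others of the mutant genotypes. Cd22 fell 12.1-fold in kFRA against WT (log2 fold change −3.6, SE 0.606, edgeR adjusted p = 0.00434). The fall in DH-LMP2A against WT was 6.86-fold (log2 fold change −2.78, SE 0.579, edgeR adjusted p = 0.0136). Both calls were kept in each fit that left out 1 replicate, and without DH-LMP2A replicate 3 the log2 fold change in DH-LMP2A was −3.88 (edgeR adjusted p = 0.000202). Between kFRA and DH-LMP2A the log2 fold change was −0.82 (95% confidence interval −2.09 to 0.46, edgeR adjusted p = 0.417), and it turned to 0.34 without DH-LMP2A replicate 3. The antisense gene Gm29439, which overlaps Cd22 on the opposite strand, had at most 2 counts in any library. Cd22 and Cd79a lie 5.96 megabases apart on chromosome 7 and differed from WT in opposite directions: per kilobase, Cd79a exceeded Cd22 by 11.6- to 26.2-fold in WT, 133- to 506-fold in DH-LMP2A and 180- to 410-fold in kFRA.

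The level of Cd22 varied with that of B cell markers within the genotypes. Over the 9 libraries, the Pearson correlation of the deviations from the genotype means with those of the 11 B cell markers was 0.957 for Cd22 and 0.808 for Blk, against 0.175 for Cd79a and −0.0977 for Lyn. Both levels in a pair come from the same library and share its depth and composition, so the correlations are descriptions. With the mean of these markers as a covariate in the fit, Cd22 had a log2 fold change of −2.44 in DH-LMP2A against WT (edgeR adjusted p = 0.000235). The markers themselves differed in both directions there, with log2 fold changes from −2.53 (Fcer2a) to 1.19 (Ms4a1). Equal means therefore need not be equal B cell content, and the part of that content in the level of Cd22 was not tested. In kFRA against WT the log2 fold change of Cd22 with the covariate was −0.97 (edgeR adjusted p = 0.338). In that comparison the B cell marker means of the groups do not overlap, with 6.22 to 6.94 in WT and at most 5.54 in kFRA on the log2 scale. None of the 4 members called there passed with the covariate. The log2 fold change of Lyn was then −1.19, with an SE of 0.517 in place of 0.238 (edgeR adjusted p = 0.412), that of Blnk 0.22 and that of Blk 0.28. In DH-LMP2A against WT, Lyn had a log2 fold change of −0.88 with the covariate and was no longer called (edgeR adjusted p = 0.1075), while Cd79a was (1.24, edgeR adjusted p = 0.0282). Of the 11 markers, 5 fell in kFRA against WT (Fcer2a, Cr2, H2-Aa, Ciita and Cxcr5), and in DH-LMP2A against WT 2 rose (Ms4a1 and Cr2) and 1 fell (Ciita).

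**Figure D3:**
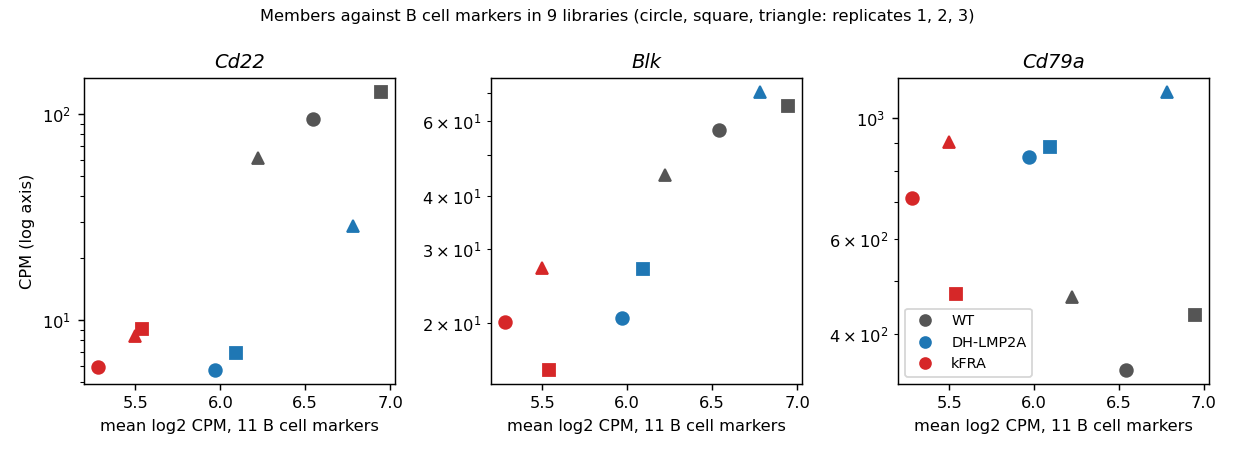
CPM of Cd22, Blk and Cd79a (y axes, log) against the mean log2 CPM of 11 B cell markers (x axes) in the 9 libraries, coloured by genotype. Cd22 ranged from 61.22 to 127.7 CPM in WT, where the marker means were 6.22 to 6.94. In DH-LMP2A it ranged from 5.75 to 28.62 CPM (marker means 5.97 to 6.78) and in kFRA from 5.946 to 9.032 CPM (5.28 to 5.54). The part of B cell content in these levels was not tested.

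Lyn, on chromosome 4 (3678115 to 3813122, plus strand), is the Src family kinase that acts both on the receptor chains and on inhibitory receptors such as CD22. It had 227.5, 222.3 and 157.1 CPM in WT, 114.4, 138.3 and 85.37 CPM in DH-LMP2A and 90.69, 118.9 and 75.34 CPM in kFRA. Every WT library was above every library of the other genotypes, which overlapped each other. Lyn fell 2.13-fold in kFRA against WT (log2 fold change −1.09, SE 0.238, edgeR adjusted p = 0.0143). The fall in DH-LMP2A against WT was 1.8-fold (log2 fold change −0.84, SE 0.237, edgeR adjusted p = 0.0473). The first call was lost without kFRA replicate 1 (edgeR adjusted p = 0.0607), kFRA replicate 3 (0.053) and WT replicate 2 (0.0542). The second was lost without DH-LMP2A replicate 1 (edgeR adjusted p = 0.113), DH-LMP2A replicate 3 (0.12), WT replicate 1 (0.1325) and WT replicate 2 (0.145). In the 10 other settings the first was lost in 3 and the second in 4. Myeloid cells also express Lyn, and their marker Lyz2 fell against WT in both kFRA (log2 fold change −2.6, edgeR adjusted p = 0.0101) and DH-LMP2A (−2.42, edgeR adjusted p = 0.0159). In all, 2 of 8 myeloid markers fell in kFRA and 1 of 8 in DH-LMP2A, and their part in the difference of Lyn was not tested. The long noncoding gene Gm26857, on the opposite strand, overlaps Lyn and had 4 to 12 counts.

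Blk, on chromosome 14 (63372837 to 63417187, minus strand), is a Src family kinase largely restricted to the B lineage. Its level was 57.34, 65.18 and 44.8 CPM in WT, 20.55, 26.89 and 70.28 CPM in DH-LMP2A and 20.16, 15.5 and 27.01 CPM in kFRA. The kFRA libraries were all below the WT libraries, while DH-LMP2A replicate 3 was above them. Blk fell 2.67-fold in kFRA against WT (log2 fold change −1.42, SE 0.426, edgeR adjusted p = 0.0479), a call that was lost in each of the 6 fits without 1 replicate (edgeR adjusted p from 0.0627 to 0.138). In the 10 other settings it was lost in 5 and changed sign in 1, the B cell marker covariate. In DH-LMP2A against WT the log2 fold change was −0.51 (SE 0.416, edgeR adjusted p = 0.503). Without DH-LMP2A replicate 3 it was −1.23 (edgeR adjusted p = 0.0231) and passed.

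Syk, on chromosome 13 (52583173 to 52648792, plus strand), is the kinase that docks on the phosphorylated CD79 tails and on LMP2A. It had 498.4, 487.4 and 483.1 CPM in WT, 392.8, 470 and 450.9 CPM in DH-LMP2A and 342.4, 400.6 and 386.4 CPM in kFRA. The WT libraries were close together and above all others. No difference passed in edgeR's test, with log2 fold changes of −0.38 in kFRA against WT (SE 0.14, edgeR adjusted p = 0.0889) and −0.16 in DH-LMP2A against WT (95% confidence interval −0.48 to 0.15). DESeq2's Wald test called the first (adjusted p = 0.016).

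Btk, on the X chromosome (134542336 to 134583570, minus strand), is the Tec family kinase that phosphorylates phospholipase C gamma 2. Its level was 87.2, 77.47 and 82.34 CPM in WT, 75.12, 70.23 and 71.1 CPM in DH-LMP2A and 102.9, 86.28 and 81.1 CPM in kFRA. The kFRA libraries lay above those of DH-LMP2A, a separation that 25.6% of all genes showed in either direction (11.6% with kFRA higher). The log2 fold change of 0.32 (95% confidence interval 0.04 to 0.6) did not pass (edgeR adjusted p = 0.173), and it did without kFRA replicate 2 (0.41, edgeR adjusted p = 0.0493).

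Blnk, on chromosome 19 (40928927 to 40994535, minus strand), is the adaptor that brings Btk and the phospholipase to Syk. It had 183.1, 169.3 and 235.4 CPM in WT, 264.7, 241.5 and 248.5 CPM in DH-LMP2A and 279.2, 253.9 and 315.9 CPM in kFRA. Both mutant genotypes lay above WT without overlap. Blnk rose 1.44-fold in kFRA against WT (log2 fold change 0.53, SE 0.161, edgeR adjusted p = 0.0492). This call was lost without kFRA replicate 1, kFRA replicate 3, WT replicate 1 or WT replicate 2 (edgeR adjusted p from 0.125 to 0.171), and in 5 of 10 other settings. In DH-LMP2A against WT the log2 fold change was 0.36 (SE 0.16, edgeR adjusted p = 0.188).

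Plcg2, on chromosome 8 (117498291 to 117635140, plus strand), is the phospholipase whose products release calcium and activate protein kinase C. It had 211, 220.7 and 271.5 CPM in WT, 268.4, 260.6 and 275.4 CPM in DH-LMP2A and 254.3, 259.8 and 203.6 CPM in kFRA. The kFRA libraries overlapped WT and lay just below those of DH-LMP2A, a separation that 25.6% of all genes showed in either direction (13.9% with kFRA lower). No difference passed, with 95% confidence intervals of the log2 fold change of −0.15 to 0.54 for DH-LMP2A against WT, −0.31 to 0.37 for kFRA against WT and −0.51 to 0.18 for kFRA against DH-LMP2A.

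**Figure D4:**
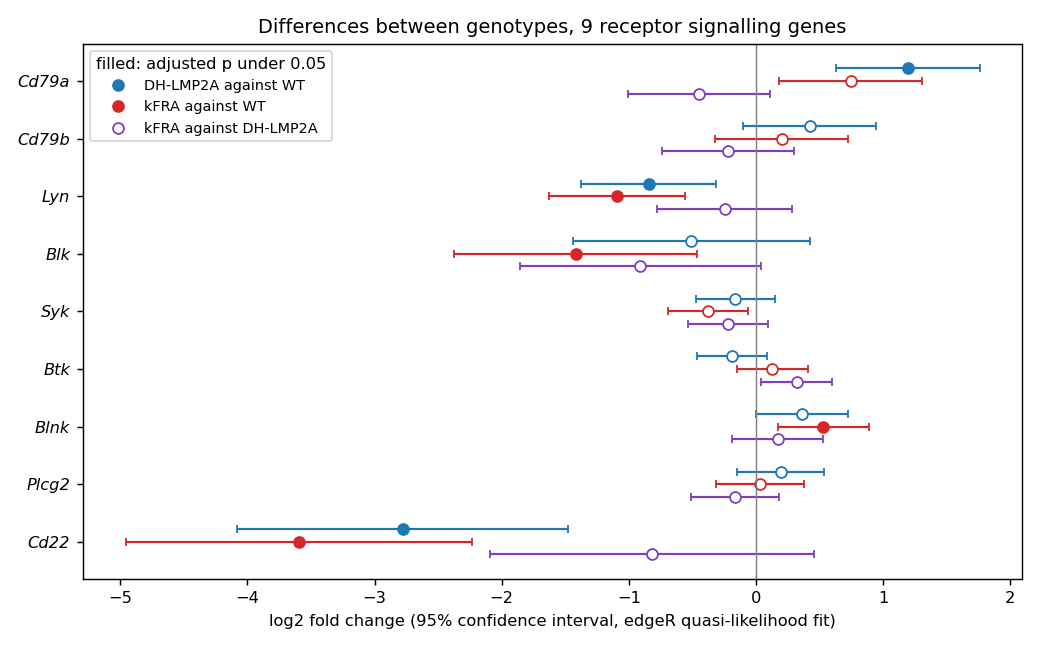
Log2 fold change (x axis) with its 95% confidence interval for the 9 genes (y axis) in the 3 comparisons, filled where the edgeR adjusted p is under 0.05. Cd22 is farthest from 0, at −3.6 and −2.78 against WT, and no point of kFRA against DH-LMP2A is filled.

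Counted by overlap, 2 members were higher and 4 lower than WT without overlap in DH-LMP2A, and likewise 2 and 4 in kFRA, where 36.6% (17.5% higher and 19.1% lower) and 34.3% (14.2% higher and 20.2% lower) of all genes had groups that did not overlap. The genes were Cd79a and Blnk (higher) with Lyn, Syk and Cd22 (lower) in both, and Btk (lower) in DH-LMP2A or Blk (lower) in kFRA. When libraries were scaled by their totals alone, the median of all genes moved to 0.33 in DH-LMP2A against WT, 0.17 in kFRA against WT and −0.14 in kFRA against DH-LMP2A, and the share of called genes that were higher rose from 41% to 79.8% and from 37.6% to 72.1% in the comparisons with WT. With this scaling the calls of Lyn were lost in DH-LMP2A (log2 fold change −0.51, edgeR adjusted p = 0.294) and in kFRA (−0.87, edgeR adjusted p = 0.102), as was that of Blk in kFRA (−1.27, edgeR adjusted p = 0.051). Calls were gained for Cd79b (0.76, edgeR adjusted p = 0.0175) and Blnk (0.72, edgeR adjusted p = 0.00978) in DH-LMP2A and for Cd79a in kFRA (0.92, edgeR adjusted p = 0.00716). Relative to that median the log2 fold changes in DH-LMP2A were 1.21 for Cd79a, 0.43 for Cd79b, 0.39 for Blnk, −0.84 for Lyn and −2.84 for Cd22, and in kFRA they were 0.74 for Cd79a, 0.56 for Blnk, −1.04 for Lyn, −1.44 for Blk and −3.57 for Cd22.

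Levels of different genes were compared per kilobase of merged exon. By genotype means, the order began with Cd79a, Cd79b and Plcg2 in every genotype and ended with Blk and Cd22. Plcg2 was above Syk in only 1 of the 3 WT libraries. In WT, Cd79a had 285 ± 44.4 CPM per kilobase (SD, n = 3) and Cd79b 213.9 ± 26.9, while the other 7 genes lay between 18.95 for Cd22 and 54.56 for Plcg2. The WT ranges of Plcg2, Syk and Lyn overlapped from one to the next, as did those of Lyn and Blnk, of Btk and Blk, and of Blk and Cd22. In DH-LMP2A, Cd79a reached 651.8 ± 99.5 CPM per kilobase (SD, n = 3) and Cd22 2.76 ± 2.58, and Lyn came after Blnk without overlap. The DH-LMP2A ranges of Syk and Blnk, of Lyn and Btk, and of Btk and Blk overlapped. So did the kFRA ranges of Plcg2 and Blnk, of Blnk and Syk, and of Btk and Lyn. In kFRA, Cd79a had 478.2 ± 148, Blk 8.44 ± 2.34 and Cd22 1.56 ± 0.327 CPM per kilobase (SD, n = 3 each), and both of the latter lay apart from the genes above them. The last place of Cd22 was thus shared with overlapping levels of Blk in WT only.

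The members did not vary as 1 group. Over the 9 libraries, Pearson correlations of log2 CPM were 0.835 between Cd79a and Cd79b, 0.862 between Blk and Cd22 and 0.758 between Lyn and Syk, but −0.816 between Cd79a and Lyn, −0.845 between Blnk and Cd22 and −0.928 between Lyn and Blnk. Among 9624 other genes with a mean of at least 5 CPM, those most like Cd79a included the ribosomal protein genes Rps6 (0.98) and Rpl31 (0.976), and those most like Cd79b were Rps25 (0.926), Rpl12 (0.924) and Rps27 (0.924). Cd22 was most like Haao (0.988), Spib (0.985), which encodes an ETS factor of B cells, and Cd72 (0.983), an inhibitory B cell receptor. Lyn was most like Gm11787 (0.985), Pcolce2 (0.985) and Gucd1 (0.984), Blk like Sun2 (0.954), Map4 (0.95) and Lsp1 (0.945), and Syk like Cmip (0.967), Flii (0.957) and Rpa1 (0.956). For Btk these genes were Parp10 (0.926), Nudt13 (0.912) and Mpi (0.906), for Blnk they were Rexo2 (0.984), Cd2bp2 (0.975) and Srsf7 (0.972), and for Plcg2 they were Clint1 (0.968), Zwint (0.913) and Asun (0.894). The 9 points of each correlation share the 3 genotypes and are given with no test.

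Beyond the members, 32 genes of the wider pathway (co-receptor, adaptors, lipid and calcium signalling, protein kinase C, and other Src kinases) were all tested. In kFRA against WT, 12 fell and none rose, with a median log2 fold change of −0.46, while 11.1% of all genes were called lower there. Prkcb, the protein kinase C that links phospholipase C to NF-kappaB in B cells, fell from 57.16 ± 11.1 to 27.18 ± 7.59 CPM (SD, n = 3 each, log2 fold change −1.07, edgeR adjusted p = 0.0128). Cr2, a complement receptor of B cells, fell from 27.31 ± 10.5 to 10.95 ± 2.39 CPM (SD, n = 3 each, −1.32, edgeR adjusted p = 0.0159), and the adaptor Grb2 by 0.51 on the log2 scale (edgeR adjusted p = 0.0179). Of this list's 12 genes, Cr2 is also among the B cell markers.

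In DH-LMP2A against WT, 3 of the 32 rose (Cr2, Itpr2 and Prkcd) and 3 fell (Grb2 and Fgr among them), with a median of −0.19. Of all genes, 5.07% were called higher and 7.3% lower in that comparison. Itpr2, a calcium channel of the endoplasmic reticulum, rose from 74.91 ± 5.88 to 119.3 ± 13.6 CPM (SD, n = 3 each; log2 fold change 0.67, edgeR adjusted p = 0.0125). Fgr, a Src kinase typical of myeloid cells, fell by 1.42 on the log2 scale (edgeR adjusted p = 0.0257). The summed level of myeloid markers was lower there too, with a median log2 fold change of −1 over the 8. Of these, 1 passed (Lyz2), and Cd14 had a positive log2 fold change (0.35, edgeR adjusted p = 0.701). The part of myeloid cells in the result was not tested. In kFRA against DH-LMP2A, 3 fell and none rose, with a median of −0.24 and 3.3% of all genes called lower. Cr2 fell by 2.45 on the log2 scale (edgeR adjusted p = 0.00126), from 60.02 ± 9.06 to 10.95 ± 2.39 CPM (SD, n = 3 each). The calcium channels Itpr2 (log2 fold change −0.57, edgeR adjusted p = 0.0472) and Itpr1 (−1.29, edgeR adjusted p = 0.0486) also fell.

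Of 18 inhibitory genes, 4 fell in kFRA against WT (Cd72, Siglecg, Ptpn6 and Pag1), 4 in DH-LMP2A against WT (Fcgr2b, Cd72, Lair1 and Ptpn6) and 1 in kFRA against DH-LMP2A (Siglecg), and none rose. The medians were −0.37, −0.27 and −0.12, and 11.1%, 7.3% and 3.3% of all genes were called lower. Myeloid cells also express Lair1, Fcgr2b and Ptpn6. The median log2 fold change of the 8 myeloid markers was −0.84 in kFRA and −1 in DH-LMP2A against WT, and that of the 11 B cell markers −0.65 and −0.18. Their part in these counts was not tested. Cd72 had 35.88 ± 7.19 CPM in WT, 4.37 ± 3.09 CPM in DH-LMP2A and 2.78 ± 1.12 CPM in kFRA (SD, n = 3 each), with log2 fold changes of −3.69 in kFRA (edgeR adjusted p = 0.00106) and −3.04 in DH-LMP2A (edgeR adjusted p = 0.00307) against WT. Ptpn6, the phosphatase that CD22 and CD72 recruit, had 230.6 ± 46.8, 119.9 ± 14 and 111.4 ± 14.9 CPM in the same order (SD, n = 3 each), and fell by 1.05 in kFRA (edgeR adjusted p = 0.0053) and by 0.94 in DH-LMP2A (edgeR adjusted p = 0.01) on the log2 scale. Siglecg, a sialic acid receptor related to CD22, had 44.02 ± 7.09, 33.25 ± 8.02 and 15.49 ± 4.22 CPM (SD, n = 3 each). It fell against both WT (log2 fold change −1.5, edgeR adjusted p = 0.00328) and DH-LMP2A (−1.1, edgeR adjusted p = 0.0309) in kFRA. Fcgr2b, the inhibitory Fc receptor, fell by 0.5 in DH-LMP2A against WT (edgeR adjusted p = 0.0297). The ligase Cbl (−0.49, edgeR adjusted p = 0.298) and the adaptor Pag1 (−0.39, edgeR adjusted p = 0.415) followed Siglecg by p-value in kFRA against DH-LMP2A and did not pass.

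**Figure D5:**
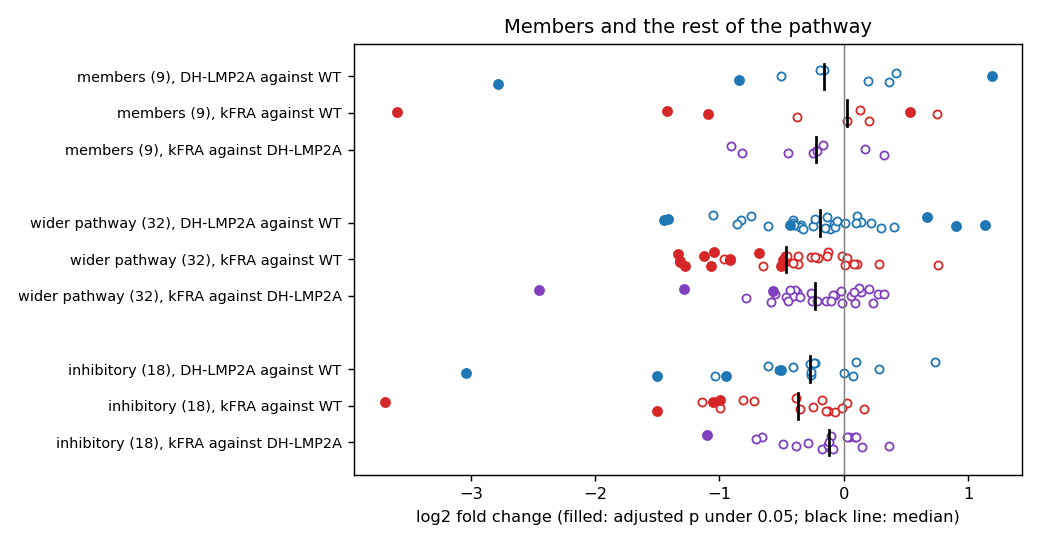
Log2 fold change (x axis) of the 9 members, 32 genes of the wider pathway and 18 inhibitory genes in the 3 comparisons (y axis), filled where the edgeR adjusted p is under 0.05, with a black line at the median. The lowest inhibitory points against WT are Cd72, at −3.69 and −3.04.

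The 8 T cell counterparts of the members (Lck, Zap70, Lcp2, Lat and Plcg1 among them) were at a summed level of 128.1 to 170.1 CPM in WT, 73.94 to 113 CPM in DH-LMP2A and 88.36 to 110.5 CPM in kFRA. None of the 8 passed in any comparison. Of the immunoglobulin chains, Ighm and Ighd fell and Iglc1 rose against WT in each mutant genotype, and none of Ighm, Ighd, Igkc, Iglc1 and Iglc2 passed in kFRA against DH-LMP2A. Igkc ranged from 112600 to 153200 CPM in DH-LMP2A and from 215900 to 471900 CPM in kFRA (log2 fold change 1.56, edgeR adjusted p = 0.128).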

How the data were processed

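The deposited table holds unnormalized counts, 1 row per gene and 1 column per library, in the featureCounts layout, per the file headers. The submitters' processing notes name STAR 2.4.0a, featureCounts, Subread 1.5.0-p3 and DESeq2, with mm10 and GRCm38. Libraries were made with a strand-specific mRNA kit, per the labels' protocols. The counting's strand setting and its treatment of multi-mapping reads are not given in the sources used here. Of 44038 genes matched to GENCODE M21 by symbol, 99.85% overlapped their GRCm38 span.

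The counts of all 9 libraries were fitted with edgeR 4.0.16 (R 4.3.3, limma 3.58.1): filterByExpr, which left 14199 genes, TMM, a coefficient per genotype and quasi-likelihood F tests, 2-sided, adjusted over all genes. The SE is the log2 fold change divided by the root of F. CPM per kilobase used the table's other column, the exon length in bases. The fit was tested on simulated data. Replicates differed by more than sampling noise (chi-square per degree of freedom 17.3 to 164). Each library is 1 mouse. Alternatives were DESeq2 1.42.0 (size factors, Wald test), library totals alone, other filters, no immunoglobulin genes, only the libraries compared, a stricter threshold, a replicate block, a B cell marker covariate and each replicate left out. Correlations used log2 CPM with a prior count of 2.

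The 9 members, the gene lists and the motifs were chosen with earlier results of these data known. Members were named whatever their values, for each of the wider pathway and inhibitory lists the 3 genes with the smallest p-value per comparison, and for each member the 3 genes with the highest correlation. Some genes these rules name are not reported here. Marker lists also held granulocyte, NK cell, plasmacytoid dendritic cell, platelet and erythroid genes. Python 3.11.15, numpy 2.4.6 and pandas 2.3.3 were used.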

Additional observations from a re-analysis of the deposited data

How the results depend on the processing

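Each alternative changed 1 choice, except that the DESeq2 Wald test also used its own size factors and tested its own set of genes. When replicates were left out in turn, the members past the threshold numbered 0 to 1 in kFRA against DH-LMP2A, 1 to 4 in kFRA against WT and 1 to 3 in DH-LMP2A against WT, and all genes past it 352 to 3299, 1271 to 5632 and 932 to 1408. The largest of these counts, 3299 and 5632, came without kFRA replicate 2. That library differed most from its group (chi-square per degree of freedom 95.7 and 138, against 18.1 between replicates 1 and 3). The counts of all genes with every replicate were 713, 2523 and 1756. For kFRA against DH-LMP2A the log2 fold change then ran from −0.3325 to 0.04607 for Cd79b and from −1.131 to 0.3393 for Cd22, and that of Plcg2 in kFRA against WT from −0.04204 to 0.1478, so each changed sign.

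With the B cell marker covariate, members past the threshold in kFRA against WT went from 4 to 0, and all genes past it to 334 there and to 196 in kFRA against DH-LMP2A. The log2 fold change turned to 0.0773 for Cd79b, 0.5463 for Blk, −0.06961 for Blnk and 1.479 for Cd22 in kFRA against DH-LMP2A, and to 0.2764 for Blk, −0.0415 for Btk and −0.1202 for Plcg2 in kFRA against WT. None of these passed. The call of Lyn against WT was lost in both mutant genotypes, at −1.19 in kFRA and −0.8764 in DH-LMP2A, values of at least the size without the covariate. At an adjusted p under 0.01 the members numbered 1 in kFRA against WT (Cd22) and 0 in DH-LMP2A against WT, and all genes 306, 975 and 765 in the order above. With a mean of at least 5 CPM, 2 members passed in kFRA against WT and 1094 genes in DH-LMP2A against WT. The DESeq2 Wald test called 1405 genes in kFRA against DH-LMP2A. By library totals alone, Syk turned to 0.1783 and Btk to 0.1495 in DH-LMP2A against WT. The cause of these changes was not tested.

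With the replicate block, 0, 5 and 3 members passed in the same order, with 685, 2930 and 2067 genes. The replicate numbers name different mice, and same-numbered libraries did not deviate together in every pair (correlations −0.211 to 0.196). The members had at least 87 counts in each library, and the effect of depth on their calls was not tested.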

Other observations

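Among the other cell types looked for, erythroid markers (7 in the table) summed to 34.11 to 187 CPM in WT, 1348 to 6846 CPM in DH-LMP2A and 601.2 to 1505 CPM in kFRA, and 3 of them (Hba-a1, Hbb-bt and Alas2) rose in each mutant genotype against WT. Granulocyte markers summed to 255.4 to 821.5, 21.72 to 258.8 and 8.747 to 27.7 CPM in the same order. S100a8 and S100a9 were lower in kFRA against WT, and S100a8 was lower in kFRA against DH-LMP2A. Mpo was higher in DH-LMP2A against WT, at low levels (means of 1.76 and 0.423 CPM). NK cell markers summed to at most 19.02 CPM and platelet markers to at most 8.461 CPM in any library. Klrk1 fell in kFRA against both other genotypes and Itga2b rose in kFRA against WT. Ncr1 rose in DH-LMP2A against WT, from 0.14 ± 0.1 to 1.58 ± 1.68 CPM (SD, n = 3 each). Its WT levels, 0.064 to 0.253 CPM, were around the floor used for detection. T cell markers summed to 52.12 to 102.2, 42.02 to 94.29 and 35.81 to 60.73 CPM, and none of the 8 passed. Plasmacytoid dendritic cell markers summed to 235.9 to 262.7, 176.7 to 192.1 and 208.3 to 238.7 CPM. Of these 4 markers Siglech rose in kFRA against WT (0.89 to 7.29 CPM, edgeR adjusted p = 0.00156) and against DH-LMP2A (edgeR adjusted p = 0.0239), Ccr9 fell in kFRA against WT (4.88 to 0.492 CPM, edgeR adjusted p = 0.0088) and Bst2 fell in DH-LMP2A against WT (edgeR adjusted p = 0.0227). Of the plasma cell markers, Mzb1, a chaperone of immunoglobulin assembly, and Slamf7 rose and Tnfrsf17 fell against WT in both mutant genotypes, and Prdm1 rose in DH-LMP2A against WT (edgeR adjusted p = 0.0159), while the edgeR adjusted p was 0.281 in kFRA against WT, and 0.12 between the mutant genotypes.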
